A study of Mus musculus with 7 samples.

Results

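The genes C1qa, C1qb, C1qc, C3, C4b and C3ar1 are the complement genes described here in AAV-injected mouse visual cortex. They were chosen by name, as 6 of the 25871 non-viral gene columns of the single-nucleus RNA-Seq counts, and all 6 had UMIs (unique molecular identifiers, 1 for each captured transcript). The counts came from nuclei of the primary visual cortex (V1) of adult male C57BL/6J mice aged 6 to 10 weeks. V1 had been injected with an SST PESCA library, a pool of AAV9 vectors in which candidate enhancers drive a barcoded transcript. Nuclei were captured with inDrops, a droplet method, in 10 libraries that carry the labels 1-1 to 1-5 and 2-1 to 2-5 and are called library set 1 and library set 2 below. The study collected 5 libraries per animal, but the labels tie neither set to an animal, and the 10 libraries form 1 sample. Every nucleus came from injected tissue, so there was no uninjected group to compare with. No value below can therefore be read as a response to the virus or to the injection, or as independent of them. With 1 sample no test across replicates was possible. Each level is given with an exact 95% Poisson interval and each share with an exact 95% Clopper-Pearson interval, which cover counting error only.

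Complement is a protein cascade that tags surfaces for removal. C1q, assembled from the chains A, B and C that C1qa, C1qb and C1qc encode, starts the classical pathway by binding its targets. C4 and C3 are then cleaved in turn, and their fragments stay bound to the target. C3ar1 encodes the receptor of the soluble C3a fragment. In the brain, microglia are known as the main source of C1q, and C1q and C3 are known for their part in the removal of synapses by microglia. C4b encodes C4, and C3 is a common marker of reactive astrocytes.

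The 47348 barcodes of the files included 32335 nuclei with more than 200 non-viral UMIs, 2457 to 3629 per library, with library medians of 612 to 876 UMIs. Nuclei were assigned to a class from marker genes that held none of the 6 genes, which gave 294 microglia, 1313 astrocytes, 1439 other glia (1202 oligodendrocytes and 237 oligodendrocyte precursors, OPCs) and 15517 neurons. Another 860 nuclei were vascular, 98 were lymphocytes and 12814 passed no gate. Microglia had a median of 446.5 UMIs and neurons of 1090. The 12 microglia markers together reached 119.6 per 10000 UMIs in gated microglia and 0.752 in neurons. Excitatory neuron markers stood at 9.41 per 10000 in gated microglia. All 8 genes of a list of macrophage and monocyte markers were also detected in gated microglia, at 71.4 per 10000 in sum against 0.216 in neurons, so macrophages in the gate cannot be told apart from microglia here. Barcode sequences were shared between libraries by 11945 nuclei (36.9%), among them 75 of the gated microglia.

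The 3 C1q genes lie side by side on the minus strand of chromosome 4 within 18.7 kb (GRCm38, GENCODE annotation). C1qb spans chr4:136880129-136886187, C1qc chr4:136889804-136893065 and C1qa chr4:136895917-136898803. C3 lies at chr17:57203970-57228136, C4b at chr17:34728380-34743882 and C3ar1 at chr6:122847138-122856161, all on the minus strand. RefSeq promoter windows of 300 bases (GRCm38.p6, 250 bases before the start site and 50 after) were at hand for 4 of the 6 genes, and are shown because these 4 genes shared microglia as the class with the highest level. Capitals mark AGGAAG or its reverse complement, the core that ETS-family factors such as PU.1 bind. The motif was chosen after the sequences were seen.
C1qb, chr4:136886151-136886450, minus strand: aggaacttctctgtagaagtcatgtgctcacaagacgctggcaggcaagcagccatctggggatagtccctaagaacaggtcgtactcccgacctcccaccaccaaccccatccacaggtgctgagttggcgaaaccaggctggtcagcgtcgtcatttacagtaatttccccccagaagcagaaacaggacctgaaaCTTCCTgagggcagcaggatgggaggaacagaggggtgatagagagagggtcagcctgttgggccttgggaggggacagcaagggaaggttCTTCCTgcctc
C1qc, chr4:136892865-136893164, minus strand: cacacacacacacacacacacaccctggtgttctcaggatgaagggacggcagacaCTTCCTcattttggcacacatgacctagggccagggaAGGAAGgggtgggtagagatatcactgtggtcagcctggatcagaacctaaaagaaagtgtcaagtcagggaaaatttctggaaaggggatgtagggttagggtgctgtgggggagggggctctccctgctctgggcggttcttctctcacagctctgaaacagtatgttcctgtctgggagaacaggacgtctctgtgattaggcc
C3ar1, chr6:122856108-122856407, minus strand: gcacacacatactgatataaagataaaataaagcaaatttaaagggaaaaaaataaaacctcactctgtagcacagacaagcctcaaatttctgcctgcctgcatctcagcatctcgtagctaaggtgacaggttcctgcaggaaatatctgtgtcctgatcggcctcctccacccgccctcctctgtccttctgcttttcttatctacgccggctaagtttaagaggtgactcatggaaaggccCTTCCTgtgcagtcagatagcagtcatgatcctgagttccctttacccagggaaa
C3, chr17:57228087-57228386, minus strand: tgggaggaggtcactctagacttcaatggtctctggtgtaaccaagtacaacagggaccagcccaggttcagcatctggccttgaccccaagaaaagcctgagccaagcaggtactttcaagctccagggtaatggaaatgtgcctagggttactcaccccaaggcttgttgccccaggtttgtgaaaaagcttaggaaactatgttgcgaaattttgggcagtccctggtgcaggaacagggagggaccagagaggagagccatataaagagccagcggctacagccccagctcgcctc

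AGGAAG occurred 2 times in the C1qb window, 2 times in the C1qc window, 1 time in the C3ar1 window and 0 times in the C3 window, counting both strands. It occurred in 35.1% of 27025 promoter windows of the same length. Counted from 1 at the RefSeq start site, the first bases of the C1qb matches lay at -52 and 40, those of C1qc at -194 and -157 and that of C3ar1 at -5. The RefSeq start of C1qc lies well inside the GENCODE span given above. Much of its window is therefore within that span, and its matches lie nearer the GENCODE start. TATAAA was found 1 time in C3 and 1 time in C3ar1, and in 14.2% of all windows. An interferon-stimulated response element core (3.49% of windows), an NF-kB site (1.43%) and the paired C/EBP letters TTGCNNCAA (2.12%) had 0 matches in the 4 windows. A match describes the letters and shows no binding.

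C1q transcripts lay mostly in microglia. C1qa reached 22.7 per 10000 UMIs in gated microglia (95% interval 20.6 to 24.9, 434 UMIs), with 14.8 in the lowest library, a median of 21.9 and 34.6 in the highest. C1qb reached 23.5 per 10000 (21.4 to 25.8, 449 UMIs), with libraries from 14 to 39.8 around a median of 21.5. C1qc reached 21.6 per 10000 (19.6 to 23.8, 413 UMIs), with libraries from 12.2 to 34.3 around a median of 18.9. All 10 libraries therefore held all 3 chains in microglia, and no library of microglia came down to the level of any other gated class for any of the 3. Gated microglia were 0.909% of the nuclei and held 62.8% of the C1qa UMIs, 64.2% of the C1qb UMIs and 60.3% of the C1qc UMIs.

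Neurons held 0.0546 C1qa UMIs per 10000, 0.0503 of C1qb and 0.0653 of C1qc. The level in microglia was 416 times that in neurons for C1qa (95% counting interval 335 to 521), 467 times for C1qb (373 to 589.7) and 331 times for C1qc (269.8 to 408), and higher in 10 of 10 libraries for each. Astrocytes held 0.205, 0.231 and 0.141 per 10000 of C1qa, C1qb and C1qc, and oligodendrocytes 0.163, 0.196 and 0.147. Of the 6 complement genes, 5 were at least 4-fold higher in microglia than in neurons, all but C4b. The same fold was passed by 14.3% of 18736 genes tested, or by 6.20% when more than 3 UMIs in microglia were also asked for. That minimum was added after the calls were seen, because genes with 0 or 1 UMI in microglia had passed, and it changed the call of none of the 6 genes.

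**Figure D1:**
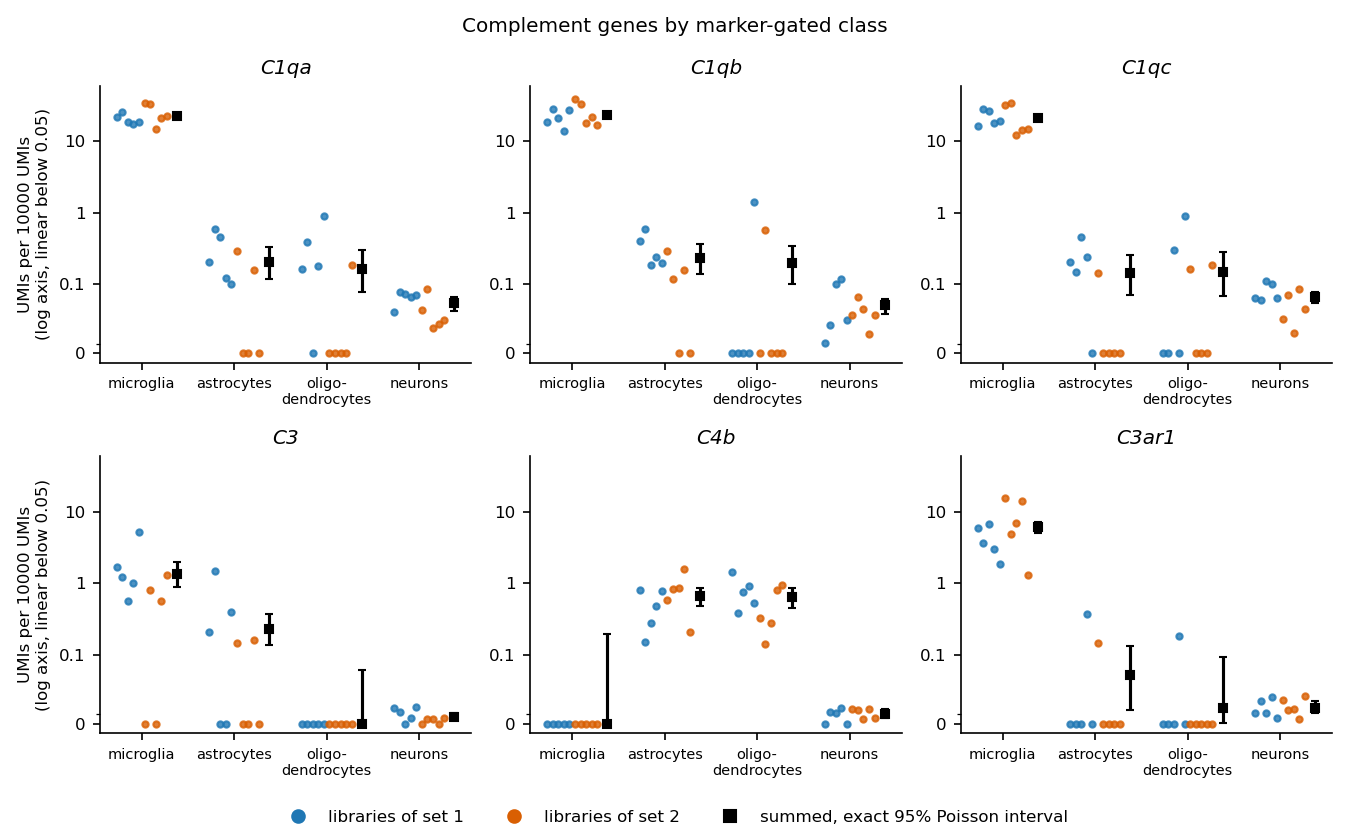
Level of each gene in UMIs per 10000 UMIs of the class (vertical axis, logarithmic and linear below 0.05) in 4 gated classes, with a dot for each of the 10 libraries and a square with its exact 95% Poisson interval for their sum. The C1q genes and C3ar1 stand highest in microglia in all libraries, while C4b has 0 UMIs in microglia and lies near 0.6 per 10000 in astrocytes and oligodendrocytes.

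**Figure D2:**
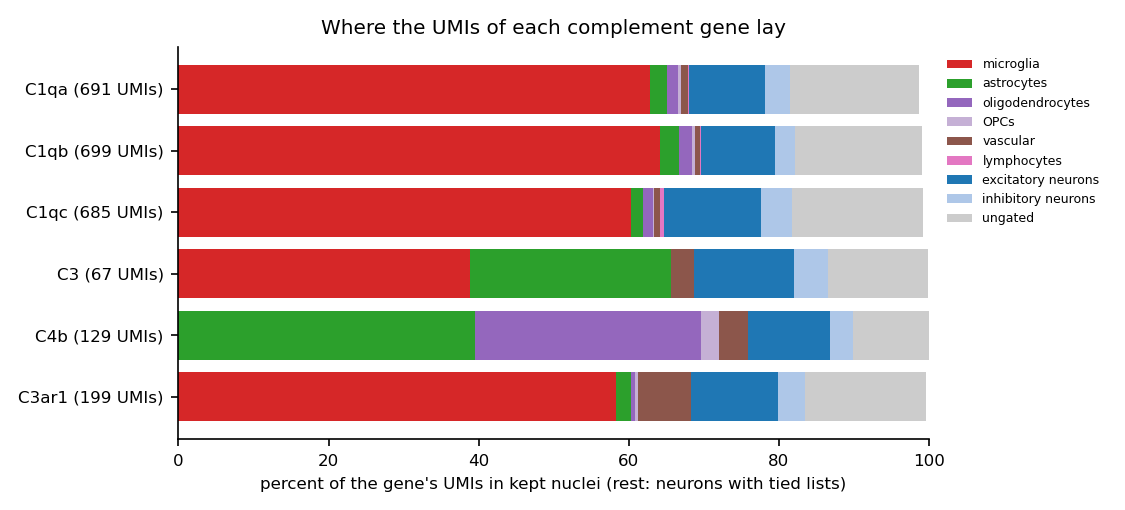
Percent of the UMIs of each gene (horizontal axis) that fell in each gated class and, in grey, in ungated nuclei, over all kept nuclei. The unfilled end of a bar belongs to neurons with tied excitatory and inhibitory markers. Microglia hold 60.3% to 64.2% of the C1q UMIs, 38.8% for C3 and 0% for C4b.

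Outside the microglia gate, C1q was denser in nuclei that also held microglia markers. Among oligodendrocytes, 24 of 31 C1q UMIs lay in the 42 nuclei with at least 1 UMI of a microglia marker, a summed C1q level of 7.38 per 10000 (4.73 to 11) against 0.121 (0.0485 to 0.249) in the other 1160. Astrocytes with such a UMI held 3.19 per 10000 (2.09 to 4.68) and those without 0.272 (0.164 to 0.425). Neurons with a microglia marker UMI held 0.9 per 10000 (0.766 to 1.05) and those without 0.0929 (0.0789 to 0.109). Without library 1-5, oligodendrocytes held 0.0898, 0.0719 and 0.0719 per 10000 of C1qa, C1qb and C1qc. Excitatory and inhibitory neurons were close to each other, with a C1qa ratio of 0.83 (0.512 to 1.39). The profile of barcodes with 200 or fewer UMIs was subtracted at an upper estimate of its share. That share was 39.5% in microglia, 32.6% in astrocytes, 37.8% in oligodendrocytes and 3.61% in neurons. C1q then came to 0 in astrocytes and oligodendrocytes. In microglia C1qa, C1qb and C1qc came to 22.2, 23 and 21.1 per 10000. The profile held only 1.3, 1.13 and 1.36 per 10000 of them, so the subtraction could take little from microglia at any share. The same subtraction brought C1qa per 10000 UMIs in neurons to 0.00773, C1qb per 10000 UMIs in neurons to 0.0094 and C1qc per 10000 UMIs in neurons to 0.016, so the ratios of microglia to neurons given above depend on how much free RNA the neurons hold.

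That profile holds microglia of its own, so the levels left after subtraction cannot show how much C1q the other classes hold. All of its barcodes together held 3.79 C1q UMIs per 10000, and those without a microglia marker UMI 0.598. Of 690 C1q UMIs in the 15013 barcodes with 200 or fewer UMIs, 585 (84.8%) lay in the 424 barcodes (2.82%) with a microglia marker UMI. The 155 such barcodes that passed the microglia gate held 55.7 C1qa UMIs per 10000 (46.6 to 66), 52.8 of C1qb (43.9 to 62.8) and 54.4 of C1qc (45.5 to 64.6). These levels were above those of gated microglia with more than 200 UMIs.

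The chains were often found together. At least 1 C1q UMI was present in 215 of 294 microglia (73.1%, 67.7 to 78.1), of which 45 held 1 of the 3 genes, 87 held 2 and 83 held all 3. Neurons, which are known to make little or no C1q, had a share of 1.44% (1.26 to 1.64) at their greater depth, and astrocytes one of 1.75% (1.11 to 2.62). The 79 microglia without a C1q UMI had a median of 632 UMIs and those with one a median of 364, so the nuclei without C1q were the deeper ones. By gene, 53.7% of microglia had a C1qa UMI, 52% a C1qb UMI and 53.4% a C1qc UMI, against 0.548%, 0.49% and 0.651% of neurons. With each nucleus thinned to 300 UMIs, which left out 97 microglia, the shares were 35.8%, 39% and 37.5%.

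The balance of the chains was even. C1qa made up 33.5% of the C1q UMIs of microglia, C1qb 34.6% and C1qc 31.9%. In the 10 libraries C1qa ranged from 28.1% to 41.7%, C1qb from 28% to 42.4% and C1qc from 25.2% to 40.2%, with 52 to 206 C1q UMIs in a library. These shares compare counts of captured transcripts and not amounts of the protein chains.

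Nuclei near microglia by their whole profile that failed the gate carried less C1q. The gate asks for microglia markers, so failing it tends to pick nuclei with little microglia RNA. A graph cluster made without the 6 genes and led by Lyz2, H2-Eb1 and H2-Aa held 289 of the 294 gated microglia (98.3%) among 574 nuclei. Its 285 nuclei that had not passed the gate held 6.29 C1qa, 6.29 C1qb and 7.34 C1qc UMIs per 10000, and 1.21 of C3ar1, at a median of 445 UMIs. The 31 ungated nuclei with macrophage markers held 16.8 C1qa (10.7 to 24.9), 18.9 C1qb (12.4 to 27.4) and 18.2 C1qc (11.9 to 26.6). These intervals overlapped those of gated microglia. The 97 ungated nuclei with UMIs of MHC class II, the genes of antigen presentation, held 4.75, 4.93 and 5.11 per 10000.

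C3, the central component on which the pathways of activation meet, was sparse, with 67 UMIs in all kept nuclei. Microglia held 26 of them, 1.36 per 10000 (0.888 to 1.99), with 0 in the lowest library, a median of 0.909 and 5.2 in library 1-5. Astrocytes held 18, 0.231 per 10000 (0.137 to 0.365), with a median library of 0.0717 and 1.49 in library 1-2. Oligodendrocytes held 0, which allows up to 0.0602 per 10000 by the exact interval, or 0.049 with 0 read as 3 UMIs. Neurons held 12, or 0.00642 per 10000 (0.00332 to 0.0112). The level in microglia was 212 times that in neurons (103 to 461, higher in 8 of 10 libraries) and 5.89 times that in astrocytes (3.11 to 11.4, higher in 7 of 10), or 12.3 times (5.31 to 31.8) without library 1-2. Against oligodendrocytes the bound was 27.8-fold, with 3 UMIs taken for their count of 0 over all libraries. This bound leaves out the counting error of the 26 UMIs, and would be lower with the exact upper limit for 0. Without library 1-5, which held 11 of the 26 UMIs, the level in microglia was 0.882 per 10000. With graph clusters in place of gates it was 0.742 per 10000, or 92.1 times neurons. In gated microglia with no marker UMI of another class it was 2.57 per 10000.

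In microglia, C3 went with MHC class II, the genes of antigen presentation (H2-Aa, H2-Ab1, H2-Eb1 and Cd74). Of the 18 microglia with a C3 UMI (6.12%, 3.67 to 9.5, against 0.0773% of neurons), 15 held an MHC class II UMI, 14 a UMI of the macrophage and monocyte list, and 15 were in library set 1. C3 reached 2.25 per 10000 (1.41 to 3.41, 22 UMIs) in the 125 microglia with an MHC class II UMI and 0.428 (0.117 to 1.1, 4 UMIs) in the 169 without. Within set 1 the values were 2.6 (1.57 to 4.06) and 0.68 (0.14 to 1.99), and within set 2 they were 1.22 (0.251 to 3.55) and 0.202 (0.00512 to 1.13), so the order held in both while the intervals overlapped within each set. Nuclei with MHC class II had a median of 561 UMIs and those without one of 345. With nuclei thinned to 300 UMIs, a C3 UMI remained in 6.42% and 1.39%. Splitting microglia by the macrophage and monocyte list gave 2.04 per 10000 (1.27 to 3.12) with a marker and 0.565 (0.184 to 1.32) without, so MHC class II and macrophage markers moved with C3 together, and their part in it was not tested.

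The other genes differed less over the MHC class II split. C1qa was at 24.2 per 10000 (21.2 to 27.4) with and 21.2 (18.3 to 24.3) without, C1qb at 26.3 (23.2 to 29.7) and 20.5 (17.7 to 23.6), and C1qc at 23.7 (20.7 to 26.9) and 19.5 (16.7 to 22.5). C3ar1 was at 6.04 (4.6 to 7.79) and 6.09 (4.62 to 7.9) over both sets, but at 5.34 (3.8 to 7.3) and 2.04 (0.933 to 3.87) in set 1, and at 8.11 (4.95 to 12.5) and 9.71 (7.16 to 12.9) in set 2. MHC class II UMIs were found in 55.7% of the microglia of set 1 and 22.9% of those of set 2, so the sets and the split overlap in part.

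**Figure D3:**
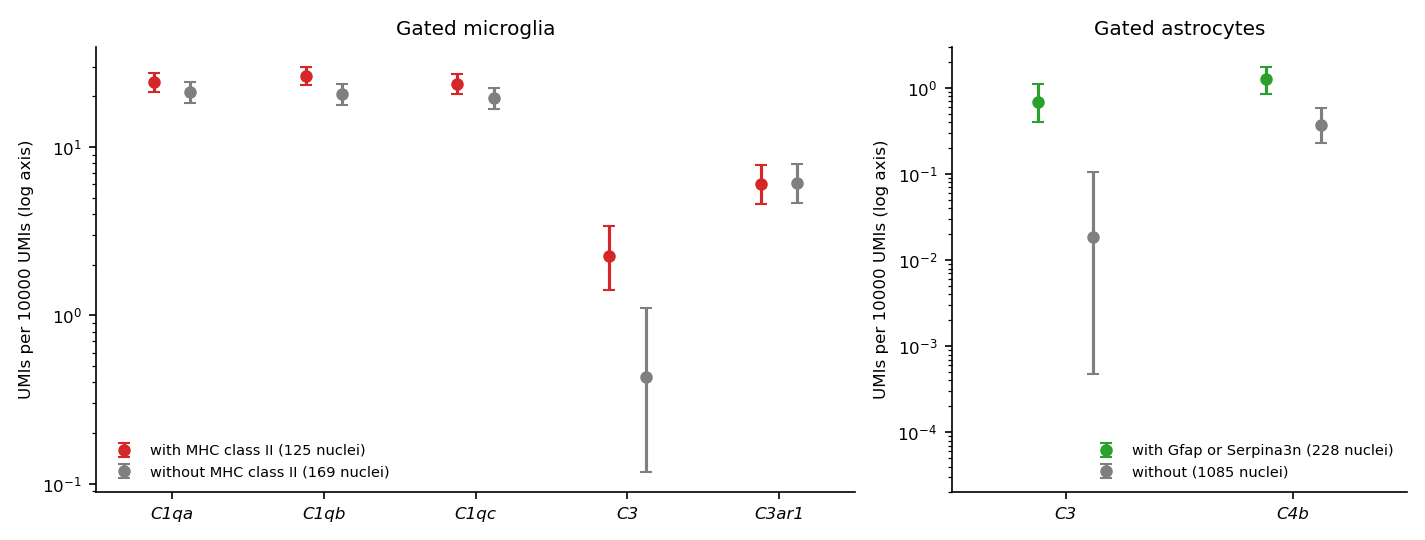
Level in UMIs per 10000 UMIs (logarithmic vertical axis) with exact 95% Poisson intervals, on the left for microglia with and without an MHC class II UMI and on the right for astrocytes with and without a UMI of Gfap or Serpina3n. C3 stands apart in both panels, at 2.25 against 0.428 in microglia and 0.689 against 0.0188 in astrocytes.

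The C3 of astrocytes came from few nuclei. It lay in 7 of 1313 astrocytes (0.533%, 0.215 to 1.1), and 3 nuclei held 13 of the 18 UMIs, with 5, 4 and 4. These 7 nuclei held 2 UMIs of microglia markers in all. They held 43 MHC class II UMIs, or 36.6 per 10000, against 2.85 in the other 1306 astrocytes and 4.11 in the 431 of these with more than 500 UMIs. They were also deeper, with a median of 1479 UMIs against 379 and 846. Doublets were not removed, and the part of MHC class II RNA and depth in the result was not tested. Their summed level of a list of reactive astrocyte genes was 228 per 10000, against 26.9 and 34 in the same 2 sets. The list is not particular to astrocytes. It stood at 64.4 per 10000 in lymphocytes, 46.3 in microglia and 30.4 in vascular nuclei, against 29.97 in all astrocytes. Gfap, an intermediate filament protein, and Serpina3n, a secreted protease inhibitor, are used as marks of reactive astrocytes. C3 was at 0.689 per 10000 (0.402 to 1.1) in the 228 astrocytes with a UMI of either and at 0.0188 (0.000475 to 0.105) in the 1085 without. The level in all astrocytes was 36 times that in neurons (16.4 to 81.9) but higher in 5 of 10 libraries only. It was 0.112 per 10000 without library 1-2 and 0.167 without the UMIs of the nucleus with most.

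C4b, the C4 component that is cleaved before C3, had another distribution. Gated microglia held 0 UMIs in every library, which allows up to 0.193 per 10000 by the exact interval, or 0.157 with 0 read as 3 UMIs. Astrocytes held 51 UMIs, 0.655 per 10000 (0.487 to 0.861), with 0.149 in the lowest library, a median of 0.682 and 1.59 in the highest. Oligodendrocytes held 39 UMIs, 0.637 per 10000 (0.453 to 0.87), with 0.141, 0.641 and 1.46. Every library held C4b in both, and the ratio of astrocytes to oligodendrocytes was 1.03 (0.664 to 1.6). Among nuclei with more than 500 UMIs it was 2.44 (1.18 to 5.55), with 0.66 per 10000 in astrocytes and 0.27 in oligodendrocytes. OPCs held 3 UMIs, vascular nuclei 5 and neurons 18, or 0.00963 per 10000 (0.00571 to 0.0152). The level was 68 times that of neurons in astrocytes (39 to 124) and 66.1 times in oligodendrocytes (36.9 to 123), each in 10 of 10 libraries. With 3 UMIs taken for the 0 of microglia, the bound on the excess over microglia was 4.17-fold in astrocytes and 4.06-fold in oligodendrocytes. These bounds leave out the counting error of the 51 and 39 UMIs, and would be lower with the exact upper limit for 0. The astrocyte bound was 1.41-fold in nuclei with no marker UMI of another class. A 4-fold excess over neurons was passed by 3 of the 6 genes in astrocytes, C1qb, C3 and C4b, beside 8.20% of all genes tested (7.36% with more than 3 UMIs). In oligodendrocytes it was passed by 2 of the 6, C1qb and C4b, beside 5.31% (3.95%). Both C1qb calls lay near the threshold. The C1qb ratio of astrocytes to neurons was 4.59, and 3.76 without library 1-1 or 3.75 without library 1-2. The C1qb ratio of oligodendrocytes to neurons was 3.9, below 4 until 0.5 was added to the counts, and it was 1.39 without library 1-5 and 3.06 without library 2-2. Against microglia, with 0.5 added to the counts, C4b alone of the 6 was 4-fold higher in astrocytes (9.78% of genes tested) and in oligodendrocytes (7.08%). The other 5 genes were 4-fold higher in microglia than in astrocytes, beside 6.82%. With graph clusters in place of gates the C3 call was lost, and the C3 ratio of astrocytes to microglia was 0.271. The added minimum left these last 3 percentages as they were.

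In astrocytes C4b was at 1.26 per 10000 (0.854 to 1.78) with a Gfap or Serpina3n UMI and at 0.376 (0.229 to 0.58) without, intervals that did not overlap. The 228 nuclei with such a UMI held 246626 UMIs and the 1085 without held 532544, so those with one were deeper on average. The part of depth in this split was not tested for C3 or C4b. A C4b UMI was found in 3.66% of astrocytes (2.71 to 4.82), 3% of oligodendrocytes (2.11 to 4.12) and 0.11% of neurons, and after thinning to 300 UMIs in 2.11%, 0.998% and 0.0337%. C4a, a near-identical copy beside C4b, had 27 UMIs, of which 21 lay in neurons and 0 in microglia, astrocytes or oligodendrocytes. Reads that fit both copies could have gone to either, so the C4b values carry that uncertainty.

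C3ar1, the C3a receptor, was highest in microglia in every library. Microglia held 116 of its 199 UMIs, 6.07 per 10000 (5.01 to 7.28), with 1.31 in the lowest library, a median of 5.4 and 15.6 in the highest. Neurons held 0.0166 per 10000 (0.0113 to 0.0235), a ratio of 366 (244 to 563) that lay above 1 in 10 of 10 libraries. Astrocytes held 4 UMIs and oligodendrocytes 1. A C3ar1 UMI was found in 21.4% of microglia (16.9 to 26.6) and 0.193% of neurons (0.13 to 0.276). Vascular nuclei held 14 UMIs, 0.11 per 10000 (0.0601 to 0.184) and 6.63 times the level of neurons (3.26 to 12.8), but 8 of these lay in 1 nucleus and 3 of 10 libraries held any. In vascular nuclei 2 of the 6 genes, C3ar1 and C4b, passed 4-fold over neurons, beside 10.7% of all genes tested (10.4% with more than 3 UMIs). The C4b call lay near the threshold, from 5 UMIs with a ratio of 4.08 (1.18 to 11.4), higher in 4 of 10 libraries. Microglia with a macrophage or monocyte marker held 8.86 C3ar1 UMIs per 10000 (7.13 to 10.9) and those without 2.83 (1.83 to 4.17). C1q differed less over that split but was also higher with a marker, by intervals that did not overlap. C1qa was at 25.9 (22.9 to 29.2) and 19 (16.2 to 22.1). C1qb was at 28 (24.9 to 31.5) and 18.2 (15.5 to 21.2). C1qc was at 24.5 (21.6 to 27.7) and 18.2 (15.5 to 21.2). Nuclei with such a marker were deeper, with a median of 554 against 325 UMIs, and the part of depth was not tested.

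In microglia, C3 was higher in set 1 and C3ar1 in set 2, and both genes were uneven over the libraries. C3 was at 1.88 per 10000 in set 1 (22 UMIs) and 0.54 in set 2 (4 UMIs), a ratio of 3.48 (1.18 to 13.9), with libraries from 0.57 to 5.2 and from 0 to 1.31. Without library 1-5 set 1 was at 1.15 per 10000 (11 UMIs) and the ratio was 2.12 (0.629 to 9.14), which does not exceed counting error. C3ar1 was at 4.1 per 10000 in set 1 and 9.18 in set 2, a ratio of 0.446 (0.302 to 0.656), with libraries from 1.89 to 6.84 and from 1.31 to 15.6. That ratio was 0.567 (0.366 to 0.883) without library 2-1, 0.537 (0.348 to 0.83) without library 2-4 and 1 (0.558 to 1.89) without both, when either set was at 4.1 per 10000. These libraries, like 1-5 for C3, were left out because they were highest, which by itself draws a ratio toward 1. Leaving them out therefore cannot show that a difference rests on them. Libraries of the sets overlapped for both genes. Libraries 2-1 and 2-4 of set 2 held 15.6 and 14.1 C3ar1 UMIs per 10000, and library 2-5 of the same set the lowest value of all. In library 2-4, 15 of the 25 C3ar1 UMIs lay in 1 nucleus, without which that library was at 7.47 per 10000 and the set ratio was 0.539 (0.357 to 0.812). C1q differed less, with ratios of 0.805 (0.663 to 0.978) for C1qa, 0.816 (0.675 to 0.989) for C1qb and 0.99 (0.809 to 1.21) for C1qc. In astrocytes C3 was at 0.35 per 10000 in set 1 (16 UMIs) and 0.0621 in set 2 (2 UMIs), a ratio of 5.63 (1.32 to 50.5) that was 2.48 (0.443 to 25.1) without library 1-2. C4b in astrocytes was at 0.525 and 0.839, a ratio of 0.626 (0.346 to 1.13). Within a set the libraries are not separate animals as far as the labels go, so these differences are between 2 sets of libraries.

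**Figure D4:**
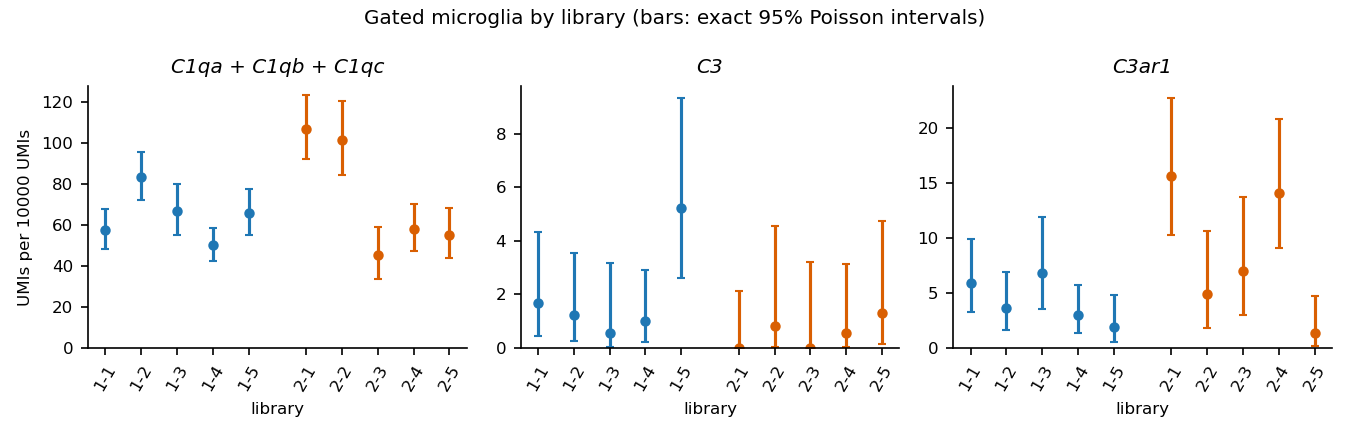
Level in gated microglia of each of the 10 libraries (horizontal axis) in UMIs per 10000 UMIs (vertical axis from 0) for the sum of the C1q genes, C3 and C3ar1, with exact 95% Poisson intervals and colors for the library sets. Library 1-5 is highest for C3 at 5.2, and libraries 2-1 and 2-4 are highest for C3ar1 at 15.6 and 14.1, with 15 of the 25 UMIs of library 2-4 in 1 nucleus.

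Viral transcripts per nucleus varied within each class, and microglia were split at the median of each library into nuclei with more (median of 7 viral UMIs) and fewer (median of 1). Microglia with more viral UMIs held less C3, at 0.623 per 10000 against 2.11, a ratio of 0.296 (0.0972 to 0.764), and less C3ar1, at 4.47 against 7.69, a ratio of 0.581 (0.389 to 0.858). For C1qa, C1qb and C1qc the ratios were 0.812 (0.669 to 0.985), 0.785 (0.648 to 0.949) and 0.63 (0.514 to 0.771). The intervals of these microglia ratios treat UMIs of 1 nucleus as separate and are too narrow. Of 116 C3ar1 UMIs in microglia 15 lay in 1 nucleus, and of 1296 C1q UMIs 79 lay in 1 nucleus. Nuclei with more viral UMIs were also deeper, with a median of 537 against 359 UMIs. When viral UMIs were taken per 1000 non-viral UMIs, the C1q ratios turned to 1.25 (1.03 to 1.52), 1.14 (0.943 to 1.38) and 1.06 (0.865 to 1.29), while C3 stayed at 0.379 (0.125 to 0.979) and C3ar1 was at 0.801 (0.539 to 1.18). In astrocytes 17 of 18 C3 UMIs lay in the part with more viral UMIs, a ratio of 12.1 (1.9 to 508), or 3.39 (1.06 to 14.1) per non-viral UMI. These intervals count each UMI as separate and are too narrow, since 13 of the 18 lay in 3 nuclei, with 1566, 2965 and 3197 UMIs and 20, 46 and 64 viral UMIs. Astrocytes in the part with more viral UMIs were deeper, with a median of 480 against 329.5 UMIs. C4b in astrocytes had a ratio of 1.43 (0.777 to 2.73).

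Beyond the 6 genes, 49 other listed complement genes had a column. In microglia against neurons, 43 could be compared, 19 of which had 0 UMIs in microglia, so that their fold rests on the added 0.5. Of the 43, 11 were at least 4-fold higher, beside 14.3% of all genes tested, and 0 at least 4-fold lower, beside 4.25%. With more than 3 UMIs in microglia also asked for, which 6.20% of all genes passed, 7 remained, among them Itgb2, Itgam, Itgax, Cfb, Cd93 and Cfp. Itgam and Itgax encode the alpha chains of the receptors for C3 fragments CR3 and CR4, and Itgb2 the beta chain that both share. They were at 3.56, 2.46 and 7.58 per 10000 in microglia, against 0.0631, 0.0102 and 0.0219 in neurons. Cfb, the factor B of the alternative pathway, was at 1.62 per 10000 in microglia (31 of its 67 UMIs), and Cfp, which encodes the stabilizing factor properdin, at 0.575. C5ar1, the receptor of C5a, had 1 UMI in microglia and C1s1, a protease that acts with C1q, had 0.

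Several regulators of the cascade were highest in classes other than microglia. Clu, which encodes clusterin, was at 35.1 per 10000 in astrocytes, 0.732 in microglia and 1.16 in neurons. Serping1, the inhibitor of the C1 proteases, was at 1.16 per 10000 in astrocytes and 2.11 in vascular nuclei, with 0 UMIs in microglia. Vtn, which encodes vitronectin, and Cd93, listed as a receptor, were highest in vascular nuclei, at 4.59 and 5.99 per 10000. Csmd1 was at 1.49 per 10000 in excitatory neurons, 1.18 in inhibitory neurons and 0.68 in microglia. Susd4 was at 1.33, 1.32 and 0.628 in these classes, and at 1.48 in OPCs from 15 UMIs. Sez6l2 was at 9.52 per 10000 in oligodendrocytes. In astrocytes 7 of 43 listed genes were at least 4-fold above neurons, beside 8.20% of all genes, or 5 with more than 3 UMIs, beside 7.36%. Another 4 were at least 4-fold below, beside 5.32%. In vascular nuclei 12 of 44 were above, beside 10.7%, and 11 were below, beside 17.4%.

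**Figure D5:**
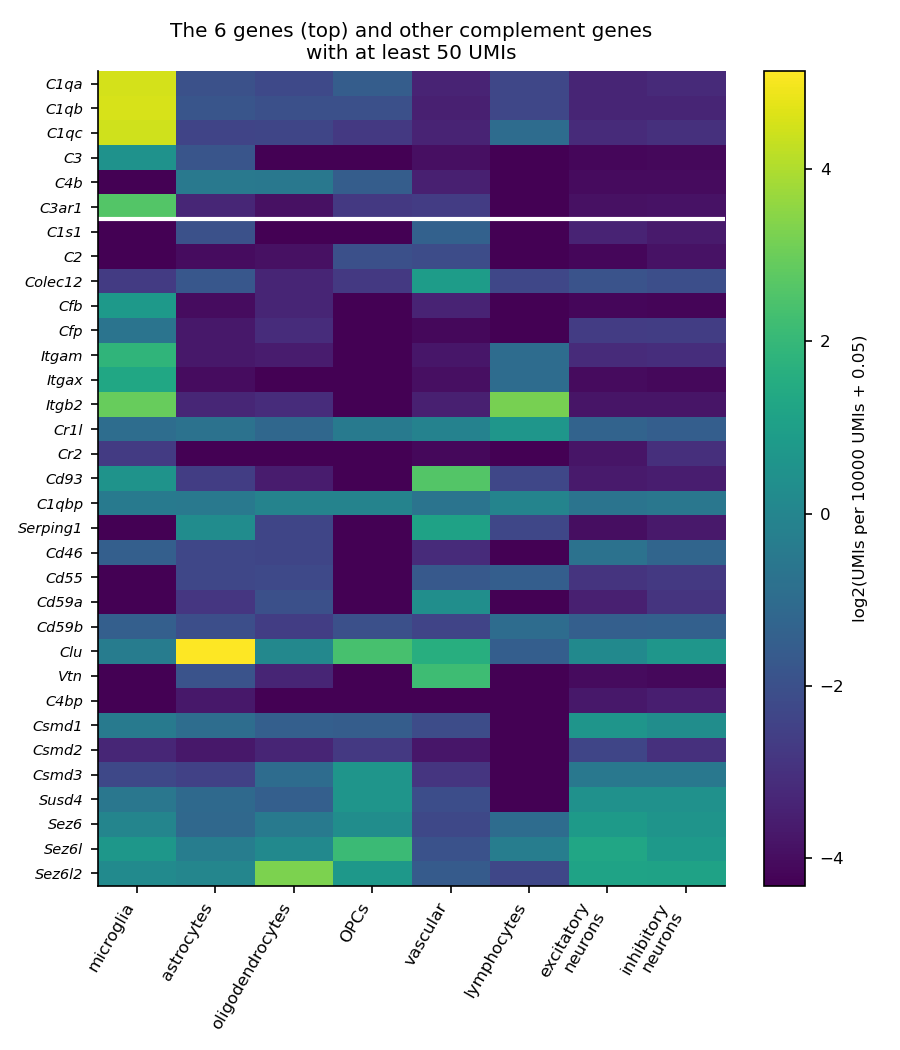
Level of the 6 genes (top) and of other complement genes with at least 50 UMIs in 8 gated classes (horizontal axis), on a color scale of log2(UMIs per 10000 UMIs + 0.05), to be compared along a row and not between genes. The C1q genes, C3ar1, Itgam, Itgax and Cfb are highest in microglia and Itgb2 in lymphocytes, at 9.09 against 7.58 per 10000 in microglia, while Clu is highest in astrocytes and Vtn and Cd93 in vascular nuclei.

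Genes with the most similar pattern were found by Pearson correlation of log2(UMIs per 10000 + 0.1) over 16 points, 8 classes in each of the 2 library sets, among 12901 genes with at least 100 UMIs that were in no marker list. The points share libraries and depth, so the values only describe likeness. C1qa was most like H2-DMa (r = 0.966), C1qb like Adgre1 (r = 0.971) and C1qc like Slc15a3 (r = 0.977). C3 was most like Tnfaip2 (r = 0.976), C4b like Pcsk6 (r = 0.974) and C3ar1 like Ly86 (r = 0.984). Among the 6 genes, C1qa and C1qb had r = 0.992, C1qa and C3 had r = 0.866 and C1qa and C4b had r = -0.164.

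The chromatin of cortical interneurons was read at the same genes in ATAC-Seq, which cuts open DNA, from uninjected mice aged 6 to 12 weeks. Nuclei were purified by a GFP tag (SUN1-2xsfGFP-6xMYC) that Pv-Cre, Vip-IRES-Cre or Sst-IRES-Cre switches on, with 2 samples each. The 6 samples held 0 to 16 reads in the reference regions within 2 kb of the start site of any of the 6 genes, out of 1801883 to 2256073 reads in regions per sample. C1qc had the highest mean, with samples from 0.555 to 7.09 reads per 1000000 reads in regions, and C1qb lay between 0 and 0.886. C1qa was above C1qc in PV sample 2 (4.99 against 0.555) and SST sample 1 (2.1 against 1.57). The mean over samples put C1qc at percentile 40.1 of 21924 protein-coding genes, C1qa at 37.1, C3 at 29.6, C1qb at 24.5 and C3ar1 at 22.6. A peak lay within 2 kb in at least 1 sample for 2 of the 6 genes, C1qa in 2 samples and C1qc in 4, beside 64.5% of all protein-coding genes. No reference region lay within 2 kb of the C4b start site. These values describe interneurons and not the glia in which the transcripts were found.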

How the data were processed

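For snRNA-Seq, the authors ran an inDrops pipeline on GRCm38, extended by the viral barcode sequences. The deposited counts are UMIs per gene and viral barcode in each nucleus, without normalization. For ATAC-Seq, the submitters' processing notes name Trimmomatic 0.33, Subread 1.4.6-p3, MACS2, HOMER and featureCounts on mm10. The deposited ATAC counts are reads per reference region, and the deposited peak lists give peaks of both callers per sample with a −log10 q-value, which was not used. A deposited table of the authors' own element comparisons (ratios) and 6 columns of peak calls were not used.

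Barcodes above 200 non-viral UMIs were kept as nuclei. A nucleus entered the class with most marker UMIs, with at least 3 UMIs of 2 genes and no tie, counting excitatory and inhibitory markers together for neurons. This rule, and the naming of graph clusters (scanpy 1.11.5, 30 components, resolution 1.5), were set after marker counts were seen. Doublets were not removed and no caller was run. Levels are summed UMIs per 10000 non-viral UMIs. Intervals are exact (scipy 1.17.1), and for bounds a count of 0 was read as 3 UMIs. Folds for calls had 0.5 added to both counts and needed 10 UMIs in both classes together. The rule for named genes was the 6 genes, the listed complement genes and markers, and the 3 most similar genes of each. C5 was read under Hc, and C7 was not analysed here. A listed gene is counted but not reported here by name. The scripts were tested on simulated data. The genes, lists and classes were chosen with earlier results of these data known. The added minimum of more than 3 UMIs and the splits by Gfap or Serpina3n and by macrophage markers were chosen after seeing the data.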

Additional observations from a re-analysis of the deposited data

Results flagged for a closer look

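In 9 of 22 combinations of a gene and a class (microglia, astrocytes, oligodendrocytes and neurons, with at least 1 UMI) the highest of the 10 libraries lay far from the others by Dixon's criterion. Chance meets it in about 1 in 20 groups of normal values, a rate that does not apply to these sparse counts with many libraries at 0. C3 in microglia reached 5.2 per 10000 UMIs in library 1-5, from 11 UMIs, and C3 in astrocytes reached 1.49 in library 1-2, from 10 UMIs. C4b in astrocytes reached 1.59 per 10000 in library 2-4, from 10 UMIs. In oligodendrocytes of library 1-5, C1qa reached 0.893, C1qb 1.43 and C1qc 0.893 per 10000, from 5, 8 and 5 UMIs. C1qc in astrocytes reached 0.461 per 10000 in library 1-3, from 5 UMIs. C3ar1 reached 0.365 per 10000 in astrocytes and 0.181 in oligodendrocytes, both in library 1-4, from 3 UMIs and 1 UMI. A gene with 1 UMI in a class meets the criterion by construction, so the last case carries no information.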

How the results depend on the processing

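No paired analysis was possible because the libraries form 1 sample and no result came from a test. The 39 main values were recomputed in 373 checks, of which 59 fell outside the counting interval of the value (for bounds, moved by over 1.5 times), 3 changed direction and 311 did neither. Levels are per 10000 UMIs. With more than 500 UMIs per nucleus, microglia held 16.6 C1qa, 18.7 C1qb, 14.3 C1qc and 4.67 C3ar1, C4b in oligodendrocytes was 0.27, and ratios to neurons were 295 for C1qa, 219 for C1qc and 30.5 for C4b in oligodendrocytes. With every barcode the C1q levels were 26.4, 26.7 and 25.2, and without shared barcodes 25.2, 28 and 24.6, with C3ar1 at 7.93. Graph clusters gave 14.6, 15 and 14.6, C3 at 0.742 and C3ar1 at 3.69, with ratios to neurons of 92.1 and 242, and a C4b ratio of astrocytes to microglia of 10.7. Nuclei with no marker of another class gave 26.9, 27.8 and 25 (908, 967 and 797 times neurons), C3 at 2.57, C3ar1 at 7.3, C3 in astrocytes at 0.607 (96.6 times neurons) and C4b in oligodendrocytes at 1.03 (144 times neurons), while the bound for C4b in astrocytes over microglia fell to 1.41. Averaging over nuclei gave 31.3, 29.4 and 31.2, C3ar1 at 7.54, C3 in astrocytes at 0.0861 and C4b in oligodendrocytes at 1.07. Set 1 alone gave C3ar1 at 4.1. Set 2 alone gave C1qa at 25.8, C1qb at 26.5, C3 at 0.54, C3ar1 at 9.18 and C3 in astrocytes at 0.0621. The ratio of microglia with to without MHC class II was 1.51 for C1qc and 2.62 for C3ar1 in set 1, and 0.929 for C1qc in set 2. Thinned shares were 35.8%, 39% and 37.5% for C1q and 14.1% for C3ar1 in microglia, and for C4b 2.11% in astrocytes and 0.998% in oligodendrocytes. Per 1000 non-viral UMIs, the viral ratios of C1q reversed to 1.25, 1.14 and 1.06. The causes were not tested.

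Leaving out each library gave C3 in microglia from 0.882 (without 1-5) to 1.5 and in astrocytes from 0.112 (without 1-2) to 0.268. Levels in microglia ran from 21.5 to 23.6 for C1qa, 21.9 to 25.2 for C1qb, 20.5 to 22.3 for C1qc and 5.12 to 6.64 for C3ar1. C4b ran from 0.572 to 0.716 in astrocytes and from 0.545 to 0.702 in oligodendrocytes. Leaving out 1-5 lowered C1q in oligodendrocytes, 1-3 lowered C1qc in astrocytes to 0.0895 and 1-4 lowered C3ar1 in astrocytes to 0.0143. Of the 3 genes most like each, a pseudocount of 1 shared 0 for C1qa and C1qb, 1 for C1qc and C3ar1 and 2 for C3 and C4b. Depth limits C3 and C4b most, with 67 and 129 UMIs in all nuclei.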
